A study of Mus musculus with 6 samples.

Results

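The 9 genes described here belong to the Hedgehog pathway and were followed in mouse neural stem cells (NSCs): the co-receptors Boc and Cdon, the receptor Ptch1, the decoy receptor Hhip, the signal transducer Smo, the inhibitor Sufu and the transcription factors Gli1, Gli2 and Gli3. They were taken by symbol from the deposited table, in which all 9 of the 9 were found among 52438 genes with values. RNA-seq had been done on adherent NSCs derived from the embryonic cortex, grown at 21% O2 in a medium with bFGF and EGF, of WT and of Setd5+/− genotype. The mutation had been made with CRISPR-Cas9, and no Hedgehog ligand is named among the components of the medium of either genotype. The labels list 3 samples for each genotype.

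Those 3 samples were counted as 1. A chi-square comparison of read pairs gave 0.961 to 0.986 per degree of freedom between samples of a genotype, so they differed by no more than sampling noise, against 34.9 to 35.0 between genotypes, and the column names show a single index and lane for each genotype. The mutant columns carry the name of clone A3. The totals were 9995980 to 10004948 reads per sample in WT and 7143309 to 7146147 in Setd5+/−. With n = 1 library per genotype no SD is given, no difference has a replicate check, and genotype, clone, culture, library and lane cannot be told apart. Values are normalized counts, that is, reads on a gene divided by the sample's size factor, and 95% intervals cover counting error only. Setd5 itself was at 2676 in WT and at 2065 in Setd5+/−, a log2 fold change of −0.37 (−0.44 to −0.31). Nes, Sox2 and Slc1a3, which mark neural stem cells, were expressed in both libraries, and of the dorsal forebrain markers Emx2, Lhx2 and Pax6 were expressed, but Emx1, a defining marker of the cortex, had 2 reads in WT and 0 in Setd5+/−.

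Hedgehog ligands are secreted proteins that pattern the ventral neural tube and sustain neural progenitors. Without ligand, Ptch1 holds Smo inactive, and Gli3 and part of Gli2 are cut into repressors with the help of Sufu. Ligand bound by Ptch1 with the co-receptors Boc, Cdon and Gas1 frees Smo, which signals in the primary cilium and turns Gli2 and Gli3 into activators. Gli1, Ptch1 and Hhip are themselves target genes of the pathway, and Ptch1 and Hhip then dampen the signal. For this reason Gli1 and Ptch1 RNA are widely used as readouts of pathway activity.

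In the Setd5+/− library Gli3, Hhip, Ptch1, Smo and Boc were higher, Gli2 and Cdon were lower, and Gli1 was barely detected in either library. Gli3 was 3.20-fold, Hhip 2.50-fold, Ptch1 2.37-fold, Smo 1.79-fold and Boc 1.53-fold the WT level, whereas Cdon was at 0.655 and Gli2 at 0.595 of it. Sufu was at 0.949 of its WT level. Gene by gene, limma on log2(normalized count + 1) with Benjamini-Hochberg adjustment was run over 16266 genes (mean normalized count of 10 or more), and a gene is called past the threshold at an adjusted value under 0.05. Being past it separates 2 libraries and says nothing of how genotypes vary. All of the 9 genes but Gli1 passed the filter. Of these 8, 5 were higher and 2 lower past the threshold, 7 in all, where 61.3% of all tested genes were past it, 30.3% higher and 30.9% lower. At least 2-fold different were 3 of the 8, all higher, against 16.4% of all tested genes, of which 10.3% were higher and 6.14% lower. The 3 values of each genotype did not overlap in 7 of the 8, 5 higher and 2 lower, against 65.3% of all tested genes, 32.4% higher and 32.9% lower. These 3 values were counted as 1 library, so a lack of overlap is no replicate check. The median log2 fold change of the 8 genes was 0.72, and that of all tested genes was −0.02.

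**Figure D1:**
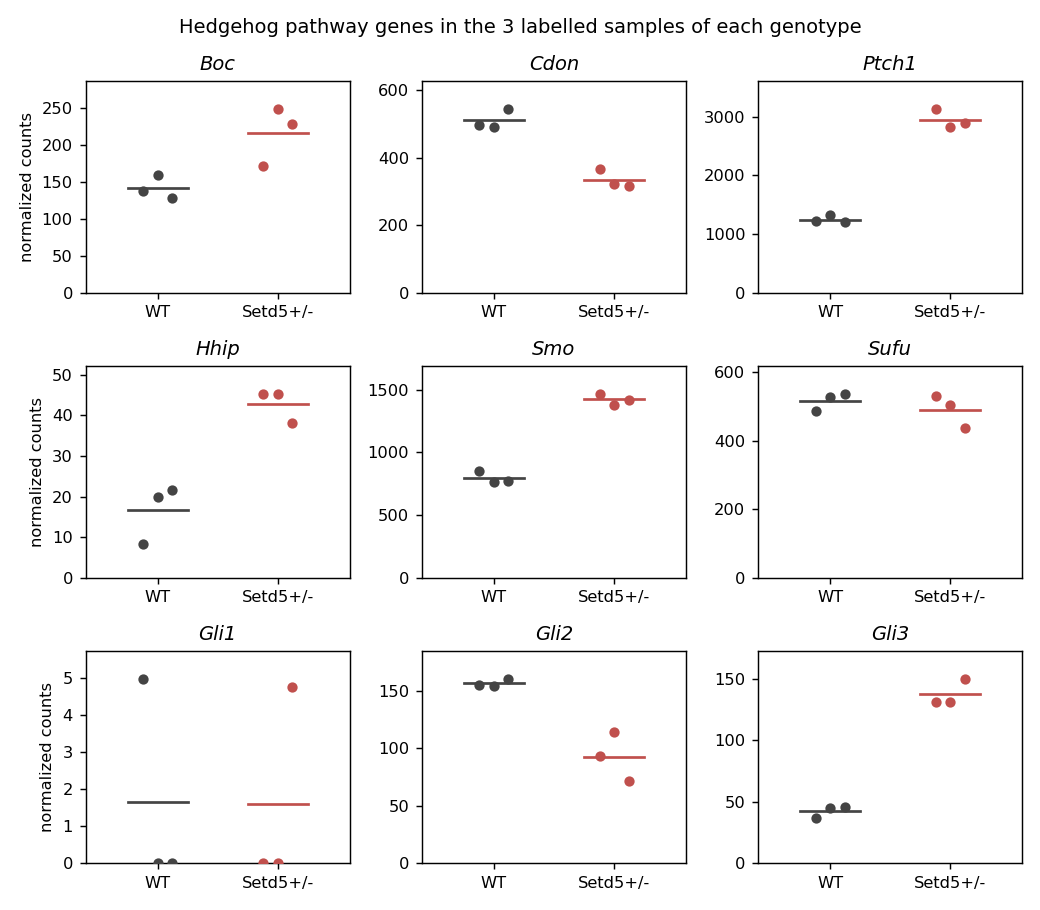
Normalized counts of the 9 Hedgehog pathway genes (y axis, linear and starting at 0, with its own range for each gene) in the 3 labelled samples of WT (dark) and Setd5+/− (red), with a bar at their mean. The samples of a genotype were counted as 1 library. Ptch1 lies at 1202 to 1320.4 in WT and 2826 to 3138 in Setd5+/−, and only Sufu and Gli1 overlap between the genotypes.

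Ptch1 is the receptor that binds the ligand. Its normalized counts were 1217, 1320.4 and 1202 in WT and 3138, 2826 and 2892 in Setd5+/−. The lowest mutant value was above the highest WT value, but the spread within each set is counting noise of 1 library. The log2 fold change was 1.24 (1.17 to 1.32), and 92.6% of all tested genes had a lower one. With 4515 reads in WT and 7434 in Setd5+/−, Ptch1 had the most reads of the 9 genes and the narrowest interval. The gene (ENSMUSG00000021466) lies on chromosome 13 from 63508328 to 63573598 on the minus strand in GRCm38, the build also called mm10.

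Hhip encodes a membrane protein that binds Hedgehog ligands and keeps them from Ptch1. Its values were 8.29, 19.9 and 21.5 in WT and 45.3, 45.3 and 38.1 in Setd5+/−. All mutant values were above all WT values, although the gene was low, with 60 reads in WT and 108 in Setd5+/−. The log2 fold change was 1.32 (0.72 to 1.92). Without WT replicate 1, the lowest of the 6, it was 1.02, and without WT replicate 3 it was 1.54. Hhip (ENSMUSG00000064325) lies on chromosome 8 from 79965851 to 80058006.

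The co-receptors Boc and Cdon, related proteins of the immunoglobulin superfamily that present ligand to Ptch1, differed in opposite directions. Boc had 138, 159 and 128 normalized counts in WT and 172, 249 and 229 in Setd5+/−. The mutant values were all higher, and the log2 fold change was 0.61 (0.37 to 0.85). Boc (ENSMUSG00000022687) lies on chromosome 16 from 44485049 to 44558897. Cdon had 498, 491 and 546 in WT and 366, 322 and 317 in Setd5+/−. All of its mutant values were below all WT values, with a log2 fold change of −0.61 (−0.77 to −0.45). Cdon (ENSMUSG00000038119) lies on chromosome 9 from 35421128 to 35507652. Per kb of exon, Cdon stood at 2.09 (1.82 to 2.39) times Boc in WT and at 0.892 (0.769 to 1.04) times Boc in Setd5+/−, so that Cdon was the higher of the pair in WT and the 2 could not be ranked in the mutant library.

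Smo, the membrane protein that passes the signal on, had 854, 760.3 and 768 normalized counts in WT and 1466, 1380.2 and 1415 in Setd5+/−. All mutant values were above all WT values, with a log2 fold change of 0.84 (0.74 to 0.94). Smo (ENSMUSG00000001761) lies on chromosome 6 from 29735503 to 29761365. Sufu, which holds Gli proteins in the cytoplasm and promotes their processing to repressors, had 487, 528 and 537 in WT and 530.4, 505 and 437 in Setd5+/−. These values overlapped. Its log2 fold change of −0.08 (−0.22 to 0.07) did not pass the threshold. Sufu (ENSMUSG00000025231) lies on chromosome 19 from 46396896 to 46488804.

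Gli3 and Gli2 differed in opposite directions. Gli3, the main repressor of the family, had 36.5, 44.7 and 45.5 normalized counts in WT and 131.1, 131 and 150.1 in Setd5+/−. All mutant values were far above the highest WT value, and the log2 fold change of 1.68 (1.3 to 2.05) was above that of 95.7% of all tested genes. Gli3 (ENSMUSG00000021318) lies on chromosome 13 from 15463235 to 15730026. The exons of a transcript on its other strand, Gm6556, overlap its own. Gm6556 stood at 2.76 in WT and at 14.3 in Setd5+/− (normalized counts), and because the counting is not stated to use strand, reads of the pair cannot be told apart.

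Gli2, the main activator of the family, was lower. It had 155, 155 and 161 normalized counts in WT and 93.0, 114 and 71.5 in Setd5+/−. The highest mutant value lay below the lowest WT value, and the log2 fold change was −0.75 (−1.05 to −0.45). Leaving out 1 sample at a time moved it between −0.92, without Setd5+/− replicate 2, and −0.59, without Setd5+/− replicate 3. Gli2 (ENSMUSG00000048402) lies on chromosome 1 from 118834132 to 119053619.

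Gli1, an activator that is switched on by the pathway, had 6 reads in the WT library, all in replicate 1, and 4 reads in the Setd5+/− library, all in replicate 3. Both ends of a fragment were counted, so these were 3 read pairs (exact Poisson interval 0.620 to 8.77) and 2 read pairs (0.242 to 7.22). Both libraries were at or under a floor of 3 read pairs, and no fold change is given. In the same libraries Ptch1, the other common readout, had 4515 and 7434 reads. Gli1 (ENSMUSG00000025407) lies on chromosome 10 from 127329882 to 127341974 on the minus strand, and exons of Arhgap9 and Gm47200 on the other strand overlap its own.

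**Figure D2:**
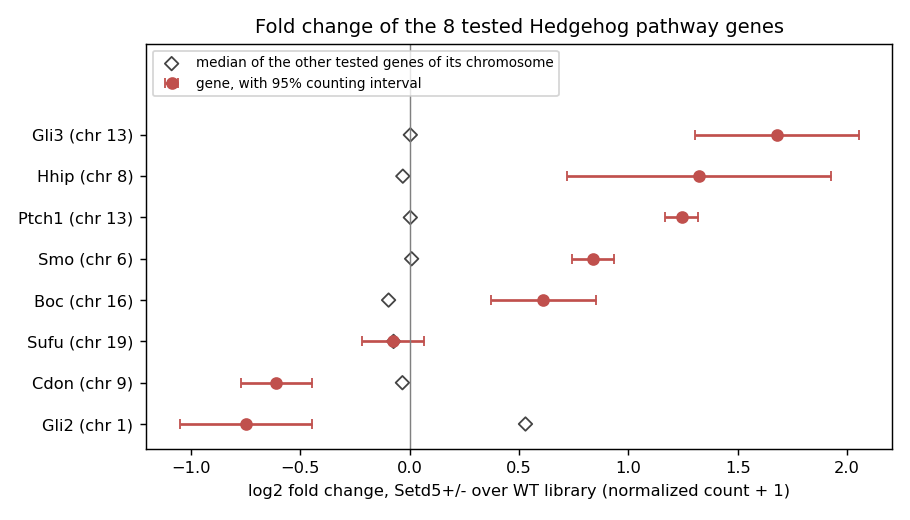
Log2 fold change of the 8 tested genes (x axis, Setd5+/− over WT library on normalized count + 1) with its 95% counting interval (red), and the median of the other tested genes of the same chromosome (open diamonds). The diamonds lie near 0 except for chromosome 1, where the median was 0.53 and Gli2 lay at −0.75.

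Gli2 lay below most of the tested genes of its chromosome. The other 1043 tested genes of chromosome 1 were higher as a group in the Setd5+/− library, with a median log2 fold change of 0.53, and 79.3% of them were higher. Only 4.41% of them had a lower value than Gli2. Within 1 Mb of its start, 11 tested genes had a median of 0.32 and ranged from −0.47 to 2.54, all of them above Gli2. The chromosomes of the other tested members showed no such shift, with medians from −0.10 on chromosome 16 to 0.01 on chromosome 6. Gli3 and Ptch1 share chromosome 13, far apart, and its other 639 tested genes had a median of 0.00. The 4 tested neighbours of Gli3 ranged from −0.35 to 0.87, all of them below Gli3. The 14 of Hhip ranged from −0.60 to 1.23, below its value of 1.32, but its interval of 0.72 to 1.92 takes in the highest of them. Without WT replicate 1 Hhip was at 1.02, and the neighbours were not computed without that sample. The 22 neighbours of Ptch1 ranged from −0.64 to 2.24.

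Divided by the length of exon sequence, the levels of the 9 genes kept Smo at the top and Gli1 at the bottom in both libraries. This length takes in all annotated exons of a gene, 14.2 kb for Ptch1 and 5.62 kb for Smo, and the transcripts in use were not determined. Undivided, Ptch1 was above Smo, at 1246 against 794 in WT and 2952 against 1420 in Setd5+/−. The intervals do not cover the choice of length. In WT, Smo had 141 normalized counts per kb, followed by Ptch1 (87.9), Sufu (67.3), Cdon (66.3), Boc (31.8), Gli2 (22.8), Gli3 (4.41), Hhip (1.83) and Gli1 (0.332). Only Sufu and Cdon did not differ beyond their counting intervals. In Setd5+/−, Smo had 253, followed by Ptch1 (208), Sufu (63.8), Boc (48.6), Cdon (43.4), Gli3 (14.3), Gli2 (13.5), Hhip (4.73) and Gli1 (0.318). There Boc and Cdon did not differ beyond their intervals, nor did Gli3 and Gli2. In WT, Smo was higher per kb than 75.5% of the tested genes and Gli3 than 5.71%, and in Setd5+/− these shares were 87.6% and 16.0%.

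Gli3 rose most and Gli2 fell most of the 8 tested genes, so the ratio of this pair had to change most. Per kb, Gli3 stood at 0.193 (0.151 to 0.247) of Gli2 in WT and at 1.06 (0.842 to 1.33) of it in Setd5+/−, a 5.49-fold (3.92 to 7.70) change of the ratio between the libraries. The ratio of Ptch1 to Smo went from 0.622 to 0.824, a change of 1.32-fold (1.22 to 1.44). Sufu had 15.3 times the level of Gli3 in WT and 4.45 times in Setd5+/−. A ratio of 2 genes in one library does not depend on the scaling of that library. These are ratios of RNA, and neither the proteins nor their cleaved forms were measured.

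**Figure D3:**
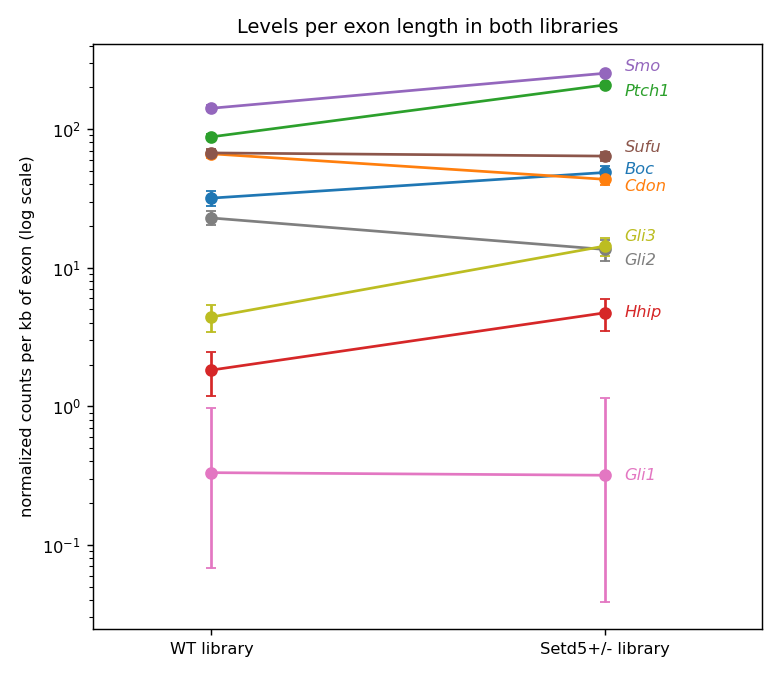
Normalized counts per kb of exon (y axis, log scale) of the 9 genes in the WT and the Setd5+/− library, with 95% counting intervals. The lines of Gli2 and Gli3 meet in the Setd5+/− library at 13.5 and 14.3, after 22.8 and 4.41 in WT.

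Promoter sequences were looked up to describe the bases around the start site, and a link between them and the fold changes was not tested. RefSeq windows (GRCm38.p6) of 300 bases, from 250 before to 50 after the start, were matched by symbol for 7 of the 9 genes, without Gli1 and Boc. Of these, 4 are printed 5′ to 3′ with each CpG in capitals, those of the 3 genes that were at least 2-fold higher and, for contrast, that of Gli2, which was lower.
Gli3: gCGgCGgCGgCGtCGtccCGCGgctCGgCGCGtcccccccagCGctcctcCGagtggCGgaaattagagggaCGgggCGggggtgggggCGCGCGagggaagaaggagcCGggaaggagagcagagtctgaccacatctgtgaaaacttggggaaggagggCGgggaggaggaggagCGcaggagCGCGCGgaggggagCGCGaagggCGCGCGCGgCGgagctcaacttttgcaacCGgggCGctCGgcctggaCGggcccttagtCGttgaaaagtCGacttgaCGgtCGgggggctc
Ptch1: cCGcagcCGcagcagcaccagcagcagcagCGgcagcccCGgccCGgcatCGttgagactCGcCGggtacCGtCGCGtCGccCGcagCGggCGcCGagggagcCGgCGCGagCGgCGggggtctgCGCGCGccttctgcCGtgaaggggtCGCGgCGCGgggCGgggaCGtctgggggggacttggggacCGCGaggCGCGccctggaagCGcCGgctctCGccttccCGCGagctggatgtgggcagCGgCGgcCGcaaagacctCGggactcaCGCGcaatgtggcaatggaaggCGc
Hhip: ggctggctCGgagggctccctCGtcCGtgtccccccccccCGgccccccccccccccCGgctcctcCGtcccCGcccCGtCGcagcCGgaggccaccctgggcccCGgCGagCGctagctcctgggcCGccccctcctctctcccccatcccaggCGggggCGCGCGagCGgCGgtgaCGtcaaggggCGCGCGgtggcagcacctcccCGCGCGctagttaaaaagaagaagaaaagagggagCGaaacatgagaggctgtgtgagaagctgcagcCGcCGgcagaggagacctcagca
Gli2: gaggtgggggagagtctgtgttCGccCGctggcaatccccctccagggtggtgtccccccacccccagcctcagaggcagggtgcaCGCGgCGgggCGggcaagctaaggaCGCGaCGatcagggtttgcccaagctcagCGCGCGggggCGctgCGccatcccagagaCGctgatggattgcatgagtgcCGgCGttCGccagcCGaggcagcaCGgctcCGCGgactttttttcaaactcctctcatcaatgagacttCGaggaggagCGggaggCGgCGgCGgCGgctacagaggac

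The windows of Gli3 (chr13:15463473-15463772, plus strand), Ptch1 (chr13:63565686-63565985, minus strand) and Hhip (chr8:80057959-80058258, minus strand) held 39, 47 and 30 CpGs, and that of Gli2 (chr1:119053570-119053869, minus strand) held 28. The median over all 32817 promoters was 7, and the Ptch1 window had more CpGs than 98.6% of them. A high CpG count was not limited to the genes that were higher, as the Gli2 window shows, and the windows of Smo, Sufu and Cdon held 17, 12 and 3. The windows of Gli3, Ptch1 and Cdon are at a start site inside the gene as GENCODE M21 draws it, not at its outermost start. The GLI binding consensus GACCACCCA, searched on both strands, was in none of the 7 windows and in 0.253% of all promoters, and its core CCACCCA, which lies within it, was also in none and in 9.31% of all. The GC box GGGCGG was in 5 of the 7, those of Gli2, Gli3, Ptch1, Sufu and Hhip, and in 35.6% of all. No match says only that these letters are not within this window.

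Ligand genes were close to absent in both libraries. Shh had 4 reads in WT and 0 in Setd5+/−, Ihh 7 and 6, and Dhh 4 and 2. Of the genes for making and releasing ligand, 4 were tested, and each was past the threshold and at least 2-fold higher in Setd5+/−. Over all tested genes, 30.3% were higher past the threshold and 10.3% were at least 2-fold higher. Hhat, the enzyme that attaches palmitate to the ligand, went from 15.2 to 47.3 normalized counts (log2 fold change 1.58, 0.97 to 2.18). Disp1, the transporter that releases it, went from 184 to 372 (1.01, 0.81 to 1.21) and its relative Disp2 from 162 to 569 (1.81, 1.62 to 2.00). Scube2, a secreted release factor, went from 2.76 to 38.1 (3.38, 2.39 to 4.37), and it passed the filter only through its level in Setd5+/−. Hhat and Disp1 lie on chromosome 1, like Gli2, where the median was 0.53. The filter kept out Scube1, with 20 reads in WT and 0 in Setd5+/−, and Scube3, with 21 and 31 reads.

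Among the other receptors and co-receptors, Gas1, which also presents ligand to Ptch1, was high and fell, from 1326 to 1034 normalized counts (log2 fold change −0.36, −0.45 to −0.26). Per kb it stood at 448 in WT and 349 in Setd5+/−, above Boc and Cdon in both. Lrp2, a large endocytic receptor that binds Shh, rose from 52.7 to 211.3 (1.98, 1.66 to 2.31). The glypicans Gpc3, with 13.8 and 11.9, and Gpc6, with 132.0 and 160.0, did not pass the threshold.

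Of 24 cytoplasmic regulators all were tested, 10 higher and 8 lower past the threshold, with a median log2 fold change of 0.00. Over all tested genes, 30.3% were higher and 30.9% lower past the threshold. Gpr161, a ciliary receptor that restrains the pathway through cAMP and lies on chromosome 1, had the largest rise, from 374 to 835 normalized counts (1.16, 1.02 to 1.29). Prkaca, a catalytic subunit of the kinase that marks Gli proteins for processing, had the largest fall, from 829 to 516 (−0.68, −0.81 to −0.55). Of 26 genes of transport in the primary cilium, 14 were higher and 4 lower past the threshold, with a median of 0.27. The largest rise was that of the motor gene Kif17, from 7.18 to 22.6 (1.53, 0.69 to 2.37), which passed the filter only through its level in Setd5+/−, followed by Ift80, from 155 to 374.5 (1.27, 1.06 to 1.48), and Wdr19, from 123 to 270 (1.13, 0.89 to 1.37). The largest fall was that of Ift22, from 138 to 92.1 (−0.58, −0.89 to −0.27).

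Genes known as targets of Hedgehog signals, not all of them in neural tissue, take in cyclins, survival genes and transcription factors, among them ventral ones. Apart from Gli1, Ptch1 and Hhip, the list had 16 genes, of which 8 were tested. Past the limma threshold 5 of the 8 were lower and 0 higher, and 3 were not past it. Of all tested genes 61.3% were past it, 30.9% lower and 30.3% higher. The 5 lower genes had to be under an unadjusted limma p of 0.05 as well. At that limit there were again 0 higher and 5 lower, but the share over all tested genes was not counted there, so this count has no comparison. Ccnd2, a G1 cyclin, fell most, from 8181 to 1746.5 normalized counts (−2.23, −2.29 to −2.16). Ccnd1, another G1 cyclin, fell from 3379 to 1731 (−0.96, −1.03 to −0.90), and Bcl2, which blocks apoptosis and lies on chromosome 1, from 257 to 161 (−0.67, −0.90 to −0.44). The factors of the oligodendrocyte lineage Olig1 and Olig2 fell from 28867 to 15491 (−0.90) and from 10646 to 6079 (−0.81). Nkx2-2, which marks ventral progenitors, had 187 and 203, Nkx6-2 had 9.94 and 12.3, and the cell cycle factor Foxm1 had 820.0 and 852, none of them past the threshold. Mycn had 2 reads in WT and 30 in Setd5+/− and was not tested. Foxa2, Nkx2-9, Nkx6-1 and Nkx2-1, which strong Hedgehog signals induce, had 0 reads in both libraries, and Foxf1 and Foxc2 had at most 6. Of 7 dorsal genes that the pathway holds down, 2 were tested. Pax6 rose from 402 to 529.7 (0.40, 0.25 to 0.55) and Emx2 fell from 283 to 198.5 (−0.51, −0.72 to −0.30). Msx1 had 6 and 40 reads, and Pax3, Pax7 and Msx2 had 0 in both.

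In all, 68 of the 86 other pathway genes were tested, of which 30 were higher and 19 lower past the threshold. Over all tested genes, 30.3% were higher and 30.9% lower past it. The median log2 fold change was 0.20 for the 68 genes and −0.02 for all tested genes. Of the 68, the 7 on chromosome 1 had a median of 0.84, with 6 higher and 1 lower. The 61 elsewhere had a median of 0.16, with 24 higher and 18 lower.

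**Figure D4:**
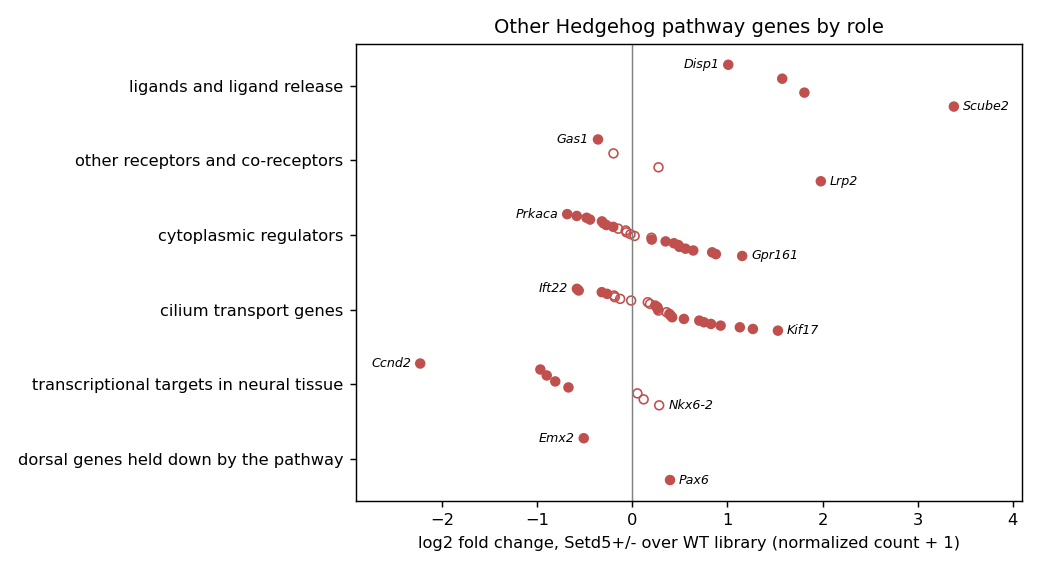
Log2 fold change (x axis, Setd5+/− over WT library on normalized count + 1) of the 68 other tested pathway genes by role, filled where past the threshold and open where not, spread vertically by rank, with the lowest and highest gene of each list named. The 4 tested genes of ligand making and release lie at 1.01 or above, and the targets reach from −2.23 for Ccnd2 to 0.28 for Nkx6-2. Among these 4, Scube2 was tested only through its level in Setd5+/−, and Hhat and Disp1 lie on chromosome 1.

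Markers of cell types moved between the same libraries, and their part in the results on Hedgehog genes was not tested. In bulk RNA, fewer cells of a type and less RNA per cell cannot be told apart. For comparison with the counts below, 30.3% of all tested genes were higher and 30.9% lower past the threshold. Of the 5 astrocyte markers, the summed level was 799 to 818 normalized counts in WT and 1239 to 1402 in Setd5+/−. Of the 4 that were tested, 3 were higher, Gfap, from 17.1 to 263, Aqp4, from 57.7 to 187, and S100b, the highest in Setd5+/−, from 339 to 737, and 1 was lower, Aldh1l1, the highest in WT, from 380.4 to 147. Of the 8 oligodendrocyte lineage markers, summing to 40997 to 41788 in WT and 23688 to 24533 in Setd5+/−, 4 were lower and 3 higher past the threshold, with Olig1 the highest, and Sox10 went from 298 to 1.59 and Mbp from 32.3 to 6.35. Of the 8 neuron markers, 3 were lower, Dcx, Snap25 and Syt1, and 1 was higher, Map2, which made up most of a sum of 10245 to 10609 in WT and 12476 to 12594 in Setd5+/−, and Neurod1 and Neurod6 had 0 reads. Of the 10 neural stem cell markers, summing to 75409 to 75568 in WT and 54448 to 55230 in Setd5+/−, 7 were lower, with Fabp7, the highest in WT, going from 36015 to 11490, Hes1 from 476 to 224 and Prom1 from 24.6 to 2.38, and 2 were higher. The 8 dorsal forebrain markers summed to 2105 to 2259 in WT and 1522 to 1623 in Setd5+/−, with 5 lower and 1 higher, and Neurog2 went from 72.3 to 0.795. The 10 ventral forebrain markers summed to 11572 to 11743 and 6971 to 7258, mostly from Olig2, with 2 lower, Olig2 and Gsx1, and 1 higher, Dlx1, and Nkx2-1, Lhx6 and Dlx5 had 0 reads. Of the 8 mesenchymal markers only Prrx1 was tested, at 382 and 627, and Twist1 and Lum had 0 reads. Of the 7 proliferation markers 3 were higher and 2 lower, with Top2a the highest and Pcna going from 101 to 29.4, and with sums of 5578 to 5694 in WT and 6729 to 6907 in Setd5+/−. Of the markers named, Dlx1 passed the filter only through its level in Setd5+/−, and Gsx1, Neurog2, Sox10, Mbp, Prom1, Snap25 and Syt1 only through that in WT, so that their calls had to go that way.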

How the data were processed

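RNA-seq (TruSeq RNA v2) had been done on NSCs, with 3 labelled samples each for WT and Setd5+/−. Per the labels, the authors' notes name Trimmomatic, Bowtie2 and DESeq2, and the counting program and strand setting are not given in the sources used here. The deposited values are scores, namely normalized counts (reads divided by a size factor) that had lost their decimal points. The points were restored from the value of 1 read in each sample, with the deposited mean over all samples used for 1116 genes. The columns of the authors' own fold changes and p-values were not used. 0 value columns were left out.

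Means over the 3 samples of a genotype, counted as 1 library, were compared as the log2 ratio of normalized count + 1. limma 3.58.1 (R 4.3.3, trended variance, Benjamini-Hochberg adjustment) was run on 16266 genes with a mean of at least 10, and was tested on simulated data. Intervals (95%) used a variance of 1.92 times the mean, since both ends of a read pair were counted. Intervals of levels and of read pairs used exact Poisson limits below 10 pairs. Those of fold changes and ratios used the variance at every depth, so they are approximate for genes with few reads. Gene positions and exon lengths came from GENCODE M21 (GRCm38), promoters from RefSeq. The replicate numbers did not pair the samples.

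The genes and lists were chosen with earlier results of these data known. All 9 genes were named, every gene of other lists with at most 9 tested, otherwise the largest rise and fall and genes past the threshold and at least 2-fold different, and for marker lists the highest gene and those at least 2-fold different. Some genes that this rule names are not reported here.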

Additional observations from a re-analysis of the deposited data

How the results depend on the processing

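With a log2 fold change of at least 1 required besides the limma threshold, the calls went from 7 to 3 of the 9 genes, all higher, from 49 to 10 of the other pathway genes and from 9963 to 2654 of all genes, and with that fold alone to 3, 10 and 2666, by construction a stricter rule. Leaving out 1 sample at a time gave 7 to 7 calls among the 9 genes, 46 to 49 among the other pathway genes and 9140 to 9589 in all, with the median of the 8 tested genes between 0.68 and 0.78. Because the samples of a genotype were counted as 1 library, this removed reads only and cannot test replication. All 103 values of single genes among the 9 kept their side of the threshold. They came from upper-quartile, TMM and per-million scaling, a pseudocount of 0.5, other filters, a replicate block and samples left out. Other filters and the block could change a call but, by construction, not a fold change. All values kept their direction except Sufu, which was not past the threshold and went from −0.08 to 0.0008 without Setd5+/− replicate 3. A mean of at least 50 left out Hhip. The fit with the replicate number as a block gave 9946 calls in all, 7 among the 9 genes and 49 among the others, and same-numbered samples did not deviate together (correlations −0.0014, −0.03 and −0.0158). edgeR and DESeq2 were not run on the whole reads that were recovered from the deposited normalized counts. Depth limits Gli1 and the ligands, which were at or near the floor of 3 read pairs.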
